A study of Homo sapiens with 8 samples.

Results

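Ribosome footprints were compared between MDA-MB-231 cells given an siRNA against ADAR1 and the same cells given a control siRNA, gene by gene. MDA-MB-231 is an established human line of triple-negative breast cancer. The genes described are those with a mean estimated count of 50 or more over the 4 Ribo-seq libraries, 9974 of the 19892 genes listed, and 9972 of them passed the filter on low counts. All values of the footprint comparison come from 2 control siRNA libraries and 2 ADAR1 siRNA libraries. Each group has a matching pair of libraries of longer RNA fragments from the same kind of lysate, which the labels call Input, giving 8 libraries in the series. For Ribo-seq, RNA of about 30 nt was cut from a gel, and for Input RNA of 40 to 60 nt. The labels used here name neither the siRNA sequences nor a time point, and no treatment other than the siRNA. They do not say whether replicates came from separate cultures, so each p-value reflects the spread among these libraries only, and that spread may be technical.

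In ribosome profiling, the stretch of messenger RNA covered by a translating ribosome is recovered and sequenced, so the footprints on a gene reflect both how much of its messenger RNA is present and how many ribosomes are on it. Ribosomes making secreted, membrane and lysosomal proteins are brought to the endoplasmic reticulum (ER) by the signal recognition particle, whereas ribosomes making cytosolic and nuclear proteins stay free in the cytosol. ADAR1, the product of ADAR, edits adenosine to inosine where RNA is double-stranded and is itself induced by interferon. Loss of the enzyme is known to let endogenous double-stranded RNA be seen by RIG-I-like receptors and by the kinase PKR, with interferon, NF-kB and stress signalling downstream. NF-kB is the transcription factor family behind many chemokine and cytokine genes, and interferon-stimulated genes are switched on by STAT and IRF factors.

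The control Ribo-seq libraries held 11975081 and 10492223 estimated counts and the ADAR1 siRNA libraries 14646868 and 14875465, so depth was higher in every siRNA library, and its part in the results below was not tested. Members held 99.5% to 99.6% of each library. The 2 siRNA libraries lay further apart than the 2 controls, with an SD of log2 differences between replicates of 0.405 against 0.282. ADAR footprints stood at 19.1 and 20.3 TPM in the controls and 1.55 and 8.41 TPM with ADAR1 siRNA (TPM is a level scaled to the library total and to transcript length). For ADAR (NCBI gene 103; chromosome 1, 154582057 to 154627997 in GRCh38.p14) the fall was log2 -2.04 ± 0.47 (SE; edgeR adjusted p = 0.0485), -1.33 without ADAR1 siRNA replicate 1 and -3.50 without replicate 2, and the Input change was -2.26 ± 0.32. Markers of MDA-MB-231 cells such as VIM, CD44 and AXL were all among the members, with a summed level of 9325 to 9996 TPM per library and 1 of 10 called (CAV1, log2 0.67). The luminal marker list summed to 522 and 580 TPM in the controls and 324 and 312 TPM with ADAR1 siRNA, with KRT19 at 290 and 355 against 133 and 173 TPM its most abundant member, ESR1 at 0 and 1 of 6 members called. Immune markers summed to 1175 and 1143 TPM in the controls and 1667 and 1431 TPM with ADAR1 siRNA, nearly all of it CD74, with CD3E at 0. Endothelial and fibroblast lists summed to at most 5.21 TPM in any library, with CDH5 and CLDN5 at 0 and 1 member, PDGFRB, called higher. The part of any of these lists in the results was not tested. In such bulk libraries a change in a share of the cells and a change in every cell cannot be told apart, and all levels are relative to the library's own total.

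After ADAR1 siRNA, footprints of 212 members rose and those of 196 fell. Among the 12 largest rises were the cytokine and chemokine genes CXCL3, CCL2, IL32, CXCL8, CXCL1, TNFSF15 and IL6 and the acute-phase genes SAA1 and SAA2, and among the largest falls were the target ADAR, the inflammatory caspase CASP1 and the interferon-stimulated genes IFIT1 and OASL. Changes were mostly moderate: 65 of the called rises and 55 of the called falls exceeded 2-fold. Over all members the median log2 fold change was 0.03, with quartiles of -0.24 and 0.29.

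These calls are at a Benjamini-Hochberg adjusted p under 0.05 over all 12000 genes tested, by edgeR's quasi-likelihood test, and cover 4.09% of members (2.13% higher, 1.97% lower) against 3.54% of all genes tested. An unadjusted p under 0.05 was found for 26.7% of members. Levels of the 2 groups stood clear of each other for 58.7% of members, 30.8% higher and 27.9% lower, and for each of the 408 called. The number called depended on single libraries: 353 without control replicate 1, 50 without control replicate 2, 1772 without ADAR1 siRNA replicate 1 and 3291 without ADAR1 siRNA replicate 2. All 408 kept their direction in each case, which was nearly fixed in advance because the groups of each do not overlap. The split between rises and falls also moved with the scaling, to 296 against 172 with upper-quartile scaling and 391 against 587 with DESeq2. Members called whichever library was left out numbered 35, of which 23 were higher and 12 lower.

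**Figure D1:**
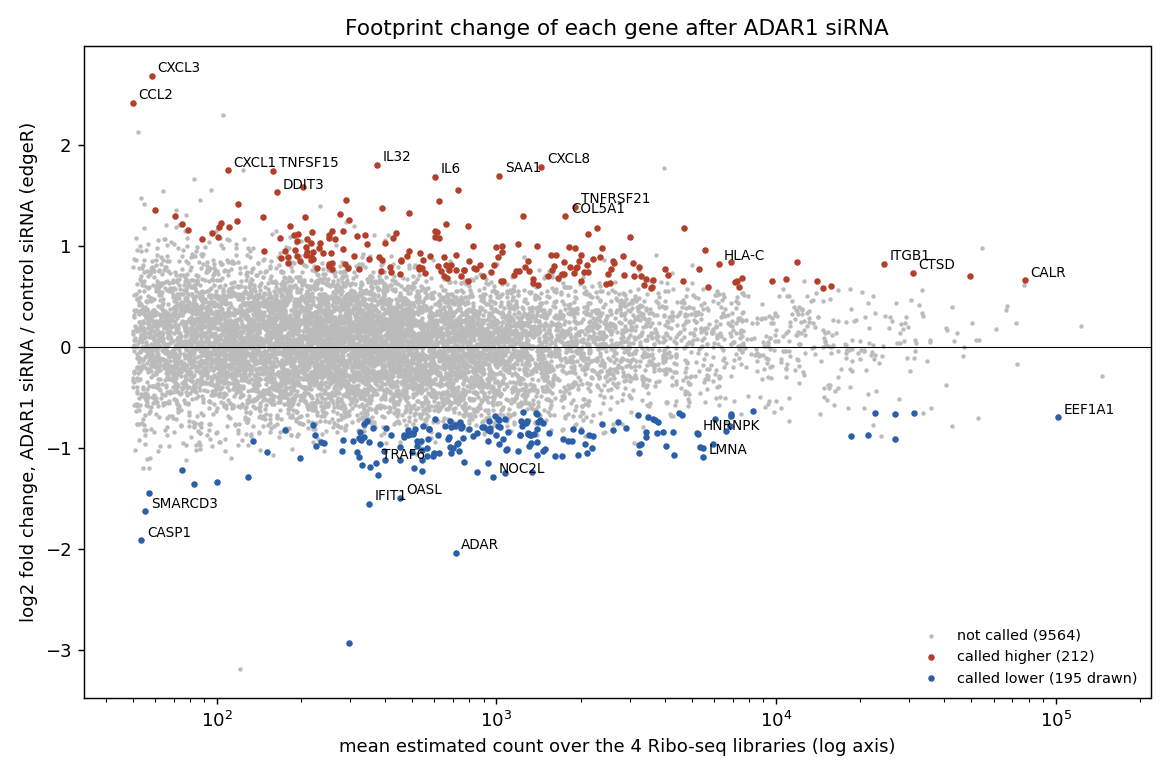
Log2 fold change of footprints after ADAR1 siRNA (edgeR, vertical axis) against the mean estimated count over the 4 Ribo-seq libraries (log horizontal axis), 1 point per gene, with 212 genes called higher in red and 195 of the 196 called lower in blue. GTF2H2C_2, at 0 counts in the siRNA libraries, is not drawn, and chemokine genes lie at the top of the plot while ADAR, CASP1, SMARCD3 and IFIT1 lie near the bottom.

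The share of members called grew with the count behind them. Of the 1995 members with the lowest mean counts (50 to 126.5) 0.752% were called higher and 0.351% lower, and of the 1995 with the highest (from 1129 upward) 4.11% and 4.01%. Ordered by the length implied by the ratio of count to TPM, the 1995 shortest had 1.05% called higher and 0.201% lower, with a median log2 fold change of 0.11. Genes with short transcripts were therefore called least often, and more of their calls were rises.

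Inflammatory cytokines and chemokines led the rises. CXCL8 (NCBI gene 3576; chromosome 4, 73740569 to 73743716 in GRCh38.p14), which encodes the neutrophil chemokine interleukin 8, stood at 98.1 and 98.9 TPM in the controls and 365 and 264 TPM with ADAR1 siRNA. The siRNA libraries lay far above a control pair that hardly differed, a 3.45-fold rise (log2 1.78 ± 0.21, SE; edgeR adjusted p = 0.0102). CXCL3, a chemokine for neutrophils, stood at 2.62 and 1.65 TPM against 15.4 and 10.5 TPM (log2 2.69 ± 0.40, adjusted p = 0.0239). Its counts were 16.4 and 8.8 in the controls and 127 and 81.3 with ADAR1 siRNA. It therefore met the count limit only through the siRNA libraries. CXCL1, its neighbour in the same gene cluster, stood at 5.65 and 8.68 against 20.5 and 24.2 TPM (log2 1.75 ± 0.27). For both, the higher control was well under the lower siRNA library. CXCL1, CXCL2 and CXCL3 are similar in sequence, and their counts summed rose by 2.08 on the log2 scale. CCL2, the monocyte chemokine, was just at the count limit, with 50 counts on average. It stood at 1.20 and 3.63 against 15.1 and 8.04 TPM (log2 2.42 ± 0.53, adjusted p = 0.0443). Its counts were 7 and 18 against 117 and 58, so it too met the limit only through the siRNA libraries.

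IL6, the gene of interleukin 6, stood at 26.95 and 22.9 TPM in the controls and 105 and 44.4 TPM with ADAR1 siRNA. Its 2 siRNA libraries differed more from each other than the lower one differed from the controls, and the log2 fold change of 1.68 ± 0.37 became 0.80 without ADAR1 siRNA replicate 1 and 2.18 without replicate 2. IL32, an inflammatory cytokine, showed the same spread at 15.2 and 17.96 against 70.3 and 36.6 TPM (log2 1.80 ± 0.33, and 1.12 without ADAR1 siRNA replicate 1). BIRC3, an inhibitor of apoptosis downstream of NF-kB, stood at 3.40 and 3.54 against 9.47 and 5.70 TPM (log2 1.29 ± 0.30). ICAM1, an adhesion molecule for leukocytes, was at 48.04 and 51.6 against 72.9 and 73.6 TPM, where the siRNA pair nearly coincided (log2 0.65 ± 0.15, adjusted p = 0.0453). Replicate 1 of the siRNA group was the higher one for CXCL3, CCL2, IL6, IL32 and BIRC3.

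Of 35 genes on a list of NF-kB targets and chemokines, 22 were members. Among these 22 members 8 rose and 0 fell, with a median log2 fold change of 0.77 against 0.03 over all members, and 19 lay above 0. The rises include CXCL3 and CCL2, which met the count limit only through the siRNA libraries. Such genes could enter the list's members only as rises, so the count and the median lean upward. With control replicate 1, control replicate 2, ADAR1 siRNA replicate 1 and ADAR1 siRNA replicate 2 left out in turn, the number called higher was 9, 7, 10 and 17. Taken gene by gene relative to the mean of the 4 libraries, the list's median level was -0.39 and -0.29 in the controls and 0.67 and 0.13 in the siRNA libraries on the log2 scale. Both siRNA libraries were above both controls, and replicate 1 was much the higher. In Input the list's median was 0.60 over 21 members, of which 0 were called. Its Input level was -0.25 and -0.16 in the controls and 0.75 and -0.12 in the siRNA libraries, so that replicate 1 stood far above the rest.

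Acute-phase and complement genes, also known to respond to inflammatory cytokines, were among the 12 largest rises. SAA1, a serum amyloid A apolipoprotein, stood at 63.2 and 57.99 against 195 and 170.1 TPM, a 3.23-fold rise (log2 1.69 ± 0.18, edgeR adjusted p = 0.00751). SAA2, a near-identical copy beside it, stood at 42.3 and 50.6 against 114 and 144 TPM (log2 1.56 ± 0.17), and the counts of the pair summed rose by 1.64. CFB, complement factor B, stood at 3.08 and 3.71 against 10.2 and 7.04 TPM (log2 1.46 ± 0.25). TNFSF15, a cytokine of the TNF family, stood at 3.61 and 5.77 against 13.5 and 15.9 TPM (log2 1.75 ± 0.25), and was one of 7 members called in the same direction in Input (log2 0.96 ± 0.11). The others called in both were SEMA3C, TFPI and HDAC9, which were higher, and CKB, G0S2 and ENTPD3, which were lower. ADGRF1, an adhesion G protein-coupled receptor, stood at 3.90 and 4.44 against 10.7 and 11.4 TPM (log2 1.59 ± 0.19), with little spread in either pair. DDIT3, the stress-induced transcription factor CHOP, was another of the 12, at 7.55 and 8.27 against 24.2 and 17.01 TPM (log2 1.53 ± 0.26).

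NF-kB binds DNA of the form GGG, any 2 bases, TTTCC, or the shorter GGAA, any base, TTCC, and the windows of 4 of the called genes are printed, because these genes had some of the largest rises, to show where those letters lie before the start of the gene. Each line is 120 bases of the RefSeq promoter on the gene's own strand (GRCh38.p14), 5′ to 3′, with the matched letters in capitals. They lie at chr4:73740422-73740541 (plus strand) for CXCL8, chr4:73869259-73869378 (plus) for CXCL1, chr4:74038704-74038823 (minus) for CXCL3 and chr7:22727072-22727191 (plus) for IL6.
CXCL8: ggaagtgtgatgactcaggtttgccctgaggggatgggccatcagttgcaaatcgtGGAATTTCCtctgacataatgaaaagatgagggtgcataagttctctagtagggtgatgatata
CXCL1: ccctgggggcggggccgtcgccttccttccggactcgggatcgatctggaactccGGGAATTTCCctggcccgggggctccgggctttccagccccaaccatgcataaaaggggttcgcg
CXCL3: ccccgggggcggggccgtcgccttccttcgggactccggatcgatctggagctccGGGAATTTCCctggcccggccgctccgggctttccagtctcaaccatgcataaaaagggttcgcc
IL6: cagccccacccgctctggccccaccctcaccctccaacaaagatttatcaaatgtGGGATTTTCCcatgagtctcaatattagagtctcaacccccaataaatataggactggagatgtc

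The CXCL1 and CXCL3 windows were identical at 110 of 120 bases and held the same capitals at the same place. Both forms overlap there, and the shorter one begins 78 bases before the start in each gene. In CXCL8 the match lay 91 bases and in IL6 73 bases before the start. Searched on both strands of the 250 bases before each start, 1 or both forms were found for 10 of the 16 NF-kB list members with a promoter in the table. The share was 2.77% of the 8311 members with a promoter and 2.41% of all 27305 promoters, and 4.68% of called rises (8 of 171) and 5.29% of called falls (9 of 170). The called rises with a match were CXCL1, CXCL3, CXCL8, IL6, IL32, BIRC3, ICAM1 and B2M. These are matches of letters only.

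Interferon-stimulated genes moved in both directions. IFIT1 (NCBI gene 3434; chromosome 10, 89392623 to 89406487), which binds RNA with a foreign 5′ end, stood at 19.6 and 21.9 TPM in the controls and 6.46 and 6.57 TPM with ADAR1 siRNA. Both siRNA libraries were at the same level, well under the controls, and the fall was 2.93-fold (log2 -1.55 ± 0.18, edgeR adjusted p = 0.0101). IFIT3, its partner protein, stood at 25.4 and 31.9 against 11.8 and 10.9 TPM (log2 -1.23 ± 0.18), and IFIT2 at 23.6 and 24.4 against 11.4 and 9.14 TPM (log2 -1.12 ± 0.20). OASL, an oligoadenylate synthetase-like antiviral protein, stood at 30.2 and 36.2 against 13.4 and 9.34 TPM (log2 -1.49 ± 0.23). HERC5, the ligase that attaches ISG15, stood at 7.42 and 7.71 against 3.07 and 3.88 TPM (log2 -1.04 ± 0.18) and IFI44 at 29.4 and 30.8 against 11.9 and 16.4 TPM (log2 -1.03 ± 0.17). In all 6 the siRNA and control libraries were clearly apart. Their Input changes were -0.84, -0.53, -0.54, -0.96, -0.22 and -0.47 on the log2 scale in the order given. ISG15 itself was not called in footprints, at 379 and 389 against 257 and 201 TPM (log2 -0.64 ± 0.18, adjusted p = 0.0728). In Input ISG15 was called lower (log2 -1.09 ± 0.13, edgeR adjusted p = 0.0488).

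Of the 57 members on the interferon-stimulated list, 11 fell and 4 rose, with a median of -0.33. Those that fell were IFIT1, IFIT2, IFIT3, OASL, MX1, IFI44, HERC5, RIGI, TRIM5, ZC3HAV1 and ADAR itself. Among those that rose were HLA-B, HLA-C and B2M, which encode parts of the class I molecules that present peptides at the cell surface. HLA-B stood at 183 and 180.1 against 297 and 280.3 TPM (log2 0.77 ± 0.15) and HLA-C at 201 and 211 against 344 and 336 TPM (log2 0.82 ± 0.14). B2M stood at 4956 and 5023 against 7227 and 8016 TPM (log2 0.70 ± 0.12). HLA genes are similar enough for reads to be shared, so their single values are uncertain. HLA-F, a related nonclassical gene chosen after its values were seen, also rose (log2 0.84 ± 0.16). With control replicate 1, control replicate 2 and then each ADAR1 siRNA library left out, the list had 9, 5, 20 and 26 members called lower and 0, 0, 5 and 9 called higher. Its median level was 0.08 and 0.25 in the controls and -0.14 and -0.14 in the siRNA libraries relative to the mean. The list's median log2 fold change in Input was -0.19, with 1 of 57 called.

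The interferon-stimulated response element has the core GAAA, any 2 bases, GAAA, and the windows of 3 genes that fell and hold more than 1 match are printed, with every match in capitals. They lie at chr10:89392458-89392577 (IFIT1), chr10:89327803-89327922 (IFIT3) and chr4:88456964-88457083 (HERC5), all on the plus strand, in the same build and format. All matches are on the opposite strand and therefore read TTTC, any 2 bases, TTTC.
IFIT1: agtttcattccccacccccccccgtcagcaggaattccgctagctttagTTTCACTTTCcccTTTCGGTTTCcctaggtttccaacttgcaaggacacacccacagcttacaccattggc
IFIT3: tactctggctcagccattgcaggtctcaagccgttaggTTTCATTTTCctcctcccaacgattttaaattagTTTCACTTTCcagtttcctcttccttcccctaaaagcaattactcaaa
HERC5: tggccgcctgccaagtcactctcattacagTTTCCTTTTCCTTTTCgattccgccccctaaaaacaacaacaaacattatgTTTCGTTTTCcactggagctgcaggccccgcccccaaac

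IFIT1 and IFIT3 each had 2 separate matches, and HERC5 had 3, of which 2 overlap. Searched on both strands of the 250 bases before each start, the core was found for 23 of the 49 interferon list members with a promoter, 2.48% of all members with one and 3.07% of all promoters in the table. It was found for 14 of 170 called falls (8.24%) and 9 of 171 called rises (5.26%), and B2M, CFB and HLA-F were among those rises.

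CASP1, the protease that activates interleukin 1 beta, stood at 4.07 and 4.27 TPM in the controls and 0.553 and 1.55 TPM with ADAR1 siRNA. This was a 3.76-fold fall (log2 -1.91 ± 0.40, edgeR adjusted p = 0.0428). Its counts were 84.5 and 75.4 against 15.1 and 39.8, so it met the count limit only through the controls. TRAF6, the ubiquitin ligase that carries signals from interleukin 1 and Toll-like receptors to NF-kB, stood at 28.4 and 26.8 against 8.51 and 12.6 TPM (log2 -1.14 ± 0.19), while its Input level was 8.14 and 8.002 against 10.96 and 10.2 TPM (log2 0.33 ± 0.09). The values thus had opposite signs in the 2 assays, and the difference passed the test given with the Input results. APOBEC3B, a cytidine deaminase of DNA, stood at 28.8 and 38.1 against 13.7 and 19.3 TPM (log2 -0.93 ± 0.19). With ADAR it was 1 of the 2 called among 7 RNA-editing and related deaminases.

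**Figure D2:**
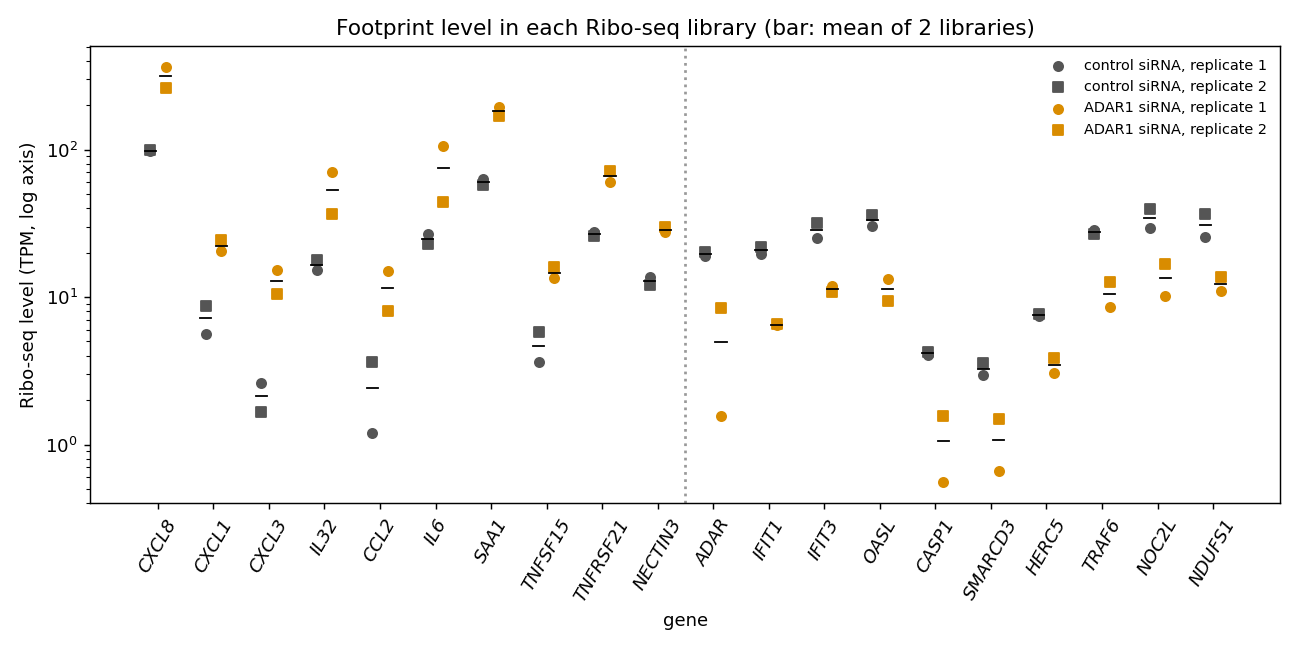
Footprint level (TPM, log axis) of 20 genes in each control siRNA library (grey) and each ADAR1 siRNA library (orange), circles for replicate 1 and squares for replicate 2, with a bar at the mean of each pair. To the left of the dotted line are genes that rose and to the right genes that fell, and in each gene the lowest of one pair lies above the highest of the other.

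Many of the gene lists differed in direction by the route that the encoded proteins take. For this description 9 lists of the secretory route were set beside 12 of the lists of proteins of the cytosol and nucleus. Over the 405 members on the secretory lists, 50 rose and 4 fell, and the median log2 fold change was 0.39, with 351 above 0. Over the 547 members of the cytosol and nucleus lists, 1 rose and 56 fell, and the median was -0.28, with 426 below 0. Over all members the counts were 212 and 196 of 9972 and the median 0.03. Members of both groupings had higher counts, with medians of 1368 and 1204 against 343.5 over all members. In the fifth of members with the highest counts 4.11% were called higher and 4.01% lower. The lists were grouped in this way after their values were seen, so the contrast is a description with no test. Secreted, Golgi and cytosolic genes named below from outside the lists were also chosen after their values were seen, and add nothing to it. The 12 leave out 6 further lists of cytosolic or nuclear proteins, namely the cytosolic ribosomal proteins (median 0.06, 0 higher and 0 lower), the replication-dependent histones (median 0.01), the cytoskeleton (median -0.14), the intermediate filaments, the RNA-editing deaminases and the ubiquitin ligases. With these 6 lists added, 2 of 776 members rose and 61 fell, and the median was -0.19, with 545 below 0. Further lists that hold cytosolic or nuclear proteins are in neither grouping. Among them are the integrated stress response (median 0.24, 2 higher and 0 lower) and the immediate early genes (median 0.15, 1 higher and 1 lower). Glycolysis and hypoxia (median -0.18, 1 higher and 5 lower) is another. The 2 exceptions in the plot of lists by library were the COPI, COPII and Golgi list and the SWI/SNF list, in each of which the groups overlapped. Some genes of cytosolic or nuclear proteins rose, among them MKI67, TUBA1A, SRF and DDIT3. Whether the route of a protein plays a part was not tested.

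The same pattern can be read from the raw totals. Genes of the secretory lists took 8.68% and 8.43% of all counts in the control Ribo-seq libraries and 11.1% and 11.3% in the siRNA libraries. Genes of the cytosol and nucleus lists took 11.7% and 12.4% in the controls and 8.92% and 10.1% in the siRNA libraries. In Input the shares were 7.56% to 7.91% and 13.03% to 13.5% over all 4 libraries. Neither pair of Ribo-seq libraries overlapped the other, and the move between groups was larger than the gap between replicates.

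The controls also differed from each other along this axis. In all 12 cytosol and nucleus lists control replicate 2 lay further from the siRNA libraries than control replicate 1. ADAR1 siRNA replicate 1 lay further from the controls than replicate 2 in 7 of 9 secretory lists and 10 of 12 cytosol and nucleus lists. Both siRNA libraries lay above both controls in 8 of 9 secretory lists and below both in 11 of 12 of the others. The number of calls therefore rested on single libraries. With control replicate 1, control replicate 2, ADAR1 siRNA replicate 1 and ADAR1 siRNA replicate 2 left out in turn, 27, 6, 158 and 210 secretory members were called higher and 50, 1, 145 and 301 cytosol and nucleus members lower, while 5, 0, 21 and 27 secretory members were called lower and 0, 0, 12 and 26 cytosol and nucleus members higher. The medians kept their sign throughout, at 0.42, 0.36, 0.32 and 0.39 and at -0.32, -0.24, -0.21 and -0.44. Where calls with a library left out are given for a list in 1 direction only, some lists also had calls in the other.

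**Figure D3:**
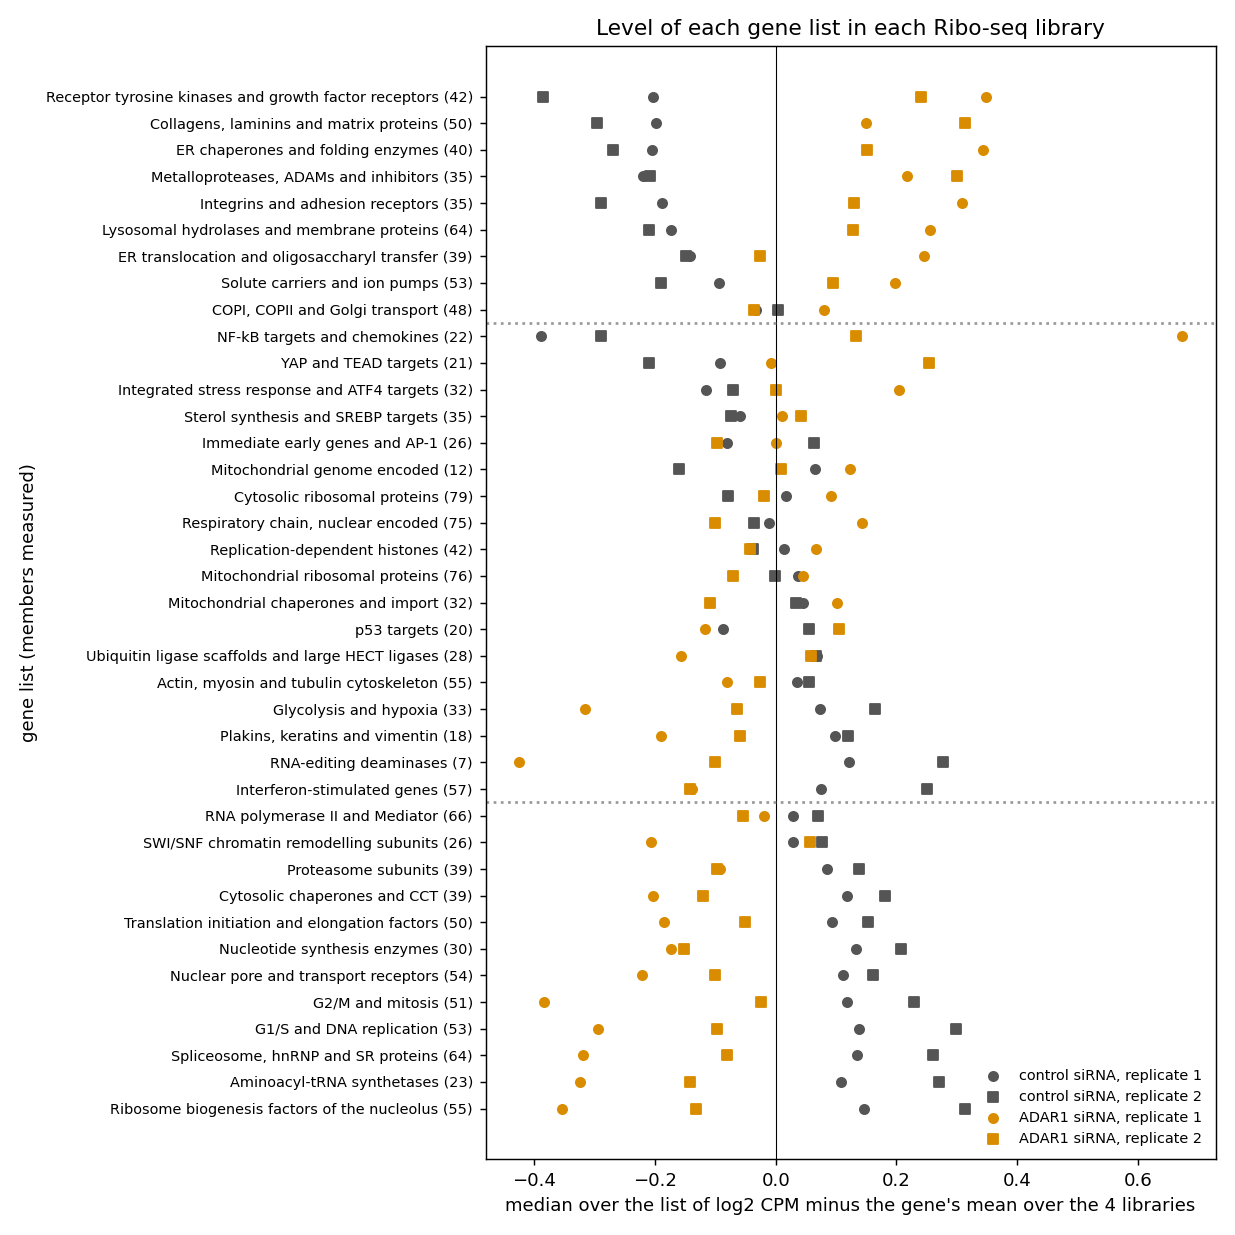
Median over each gene list of log2 CPM (counts scaled to the library total) relative to each gene's mean over the 4 Ribo-seq libraries (horizontal axis), for the control siRNA libraries (grey) and the ADAR1 siRNA libraries (orange), with the number of members measured in brackets. The block above the upper dotted line holds the 9 secretory lists, where orange lies to the right of grey in 8, and the block under the lower line holds the 12 cytosol and nucleus lists, where orange lies to the left in 11.

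Receptors of the cell surface had the highest median of the secretory lists. Of 42 members on the list of receptor tyrosine kinases and growth factor receptors, 9 rose and 0 fell (median 0.60, 40 above 0). TNFRSF21, death receptor 6 of the TNF receptor family, stood at 27.5 and 25.95 TPM in the controls and 59.9 and 71.9 TPM with ADAR1 siRNA, and its 2.62-fold rise had the smallest adjusted p on the list (log2 1.39 ± 0.15, edgeR adjusted p = 0.00751). TGFBR2, the ligand-binding receptor for TGF-beta, stood at 42.5 and 38.98 against 70.9 and 103 TPM (log2 1.18 ± 0.17). Its coreceptor TGFBR3 stood at 2.42 and 2.71 against 4.82 and 4.51 TPM (log2 0.96 ± 0.20). ROR1, a receptor for Wnt ligands, stood at 5.17 and 6.02 against 9.27 and 11.1 TPM (log2 1.12 ± 0.17). In these 4 genes both siRNA libraries lay above both controls, and the Input changes were 0.45, 0.34, 0.04 and 0.44 on the log2 scale in the order given.

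Of 35 members on the integrin and adhesion receptor list, 9 rose and 0 fell (median 0.45). NECTIN3, an adhesion molecule of cell junctions, stood at 13.7 and 12.004 against 27.6 and 29.7 TPM (log2 1.21 ± 0.16). The integrin subunit genes ITGAV, at 19.9 and 19.3 against 35.04 and 38.2 TPM (log2 0.99 ± 0.14), and ITGB1, at 399 and 349 against 615 and 627 TPM (log2 0.83 ± 0.14), also rose. ITGB1 had the highest footprint level of them per length, and its 2 siRNA libraries differed by little. With libraries left out in the order given above, 7, 1, 25 and 29 receptors and 6, 2, 17 and 24 adhesion members were called higher.

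Genes of the extracellular matrix and the proteases that act on it followed. Of 50 members on the matrix list 9 rose and 0 fell (median 0.50). COL5A1, a fibrillar collagen chain, stood at 9.28 and 9.40 against 15.1 and 29.05 TPM (log2 1.29 ± 0.23), with the controls alike and the siRNA pair far apart, and its fold change was 0.81 without ADAR1 siRNA replicate 2 and 1.64 without replicate 1. FBN1, the microfibril protein fibrillin 1, stood at 1.70 and 1.54 against 2.96 and 4.77 TPM (log2 1.33 ± 0.21). COL18A1, a basement membrane collagen, stood at 8.38 and 8.49 against 13.4 and 18.3 TPM (log2 0.99 ± 0.16) and P4HA1, a collagen prolyl hydroxylase of the ER, at 51.8 and 49.1 against 75.9 and 81.95 TPM (log2 0.74 ± 0.14). Replicate 2 of the siRNA group was the higher one for COL5A1, FBN1, COL18A1 and P4HA1, as it was for CXCL1, TNFSF15 and SAA2, whereas replicate 1 was the higher one for CXCL3, CCL2, IL6, IL32 and BIRC3.

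Of 35 metalloproteases, related proteases and inhibitors, 6 rose and 0 fell (median 0.46). The membrane-bound sheddases ADAM19 (9.28 and 8.25 against 16.8 and 20.996 TPM, log2 1.20 ± 0.16), ADAM9 (log2 0.90 ± 0.14) and ADAM10 (log2 0.71 ± 0.15) were among them. TFPI, the inhibitor of the tissue factor pathway, stood at 30.8 and 31.2 against 44.4 and 61.4 TPM (log2 0.85 ± 0.16), with nearly the same change in Input (log2 0.88 ± 0.07). With libraries left out in the same order, 8, 3, 32 and 24 matrix and 3, 0, 16 and 17 protease list members were called higher.

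Secreted factors and a receptor outside the lists were also among the calls, chosen here after their values were seen. CSF1, the macrophage growth factor, stood at 96.9 and 114 against 209 and 190.1 TPM (log2 1.18 ± 0.16) and BMP4, a morphogen of the TGF-beta family, at 45.7 and 53.5 against 86.7 and 97.8 TPM (log2 0.98 ± 0.15). NOG, an antagonist of such morphogens, stood at 10.3 and 11.6 against 16.3 and 35.9 TPM (log2 1.32 ± 0.29), with the siRNA replicates far apart. NTN4, a netrin of the basement membrane, stood at 5.79 and 6.05 against 14.8 and 14.3 TPM (log2 1.37 ± 0.18), with little spread in the siRNA pair. SEMA3C (log2 0.98 ± 0.14), EDIL3 (log2 1.12 ± 0.14) and PDGFC (log2 0.91 ± 0.16), which encode a semaphorin, an integrin-binding matrix protein and a growth factor, rose too. CEMIP, which takes part in the breakdown of hyaluronan, stood at 3.91 and 4.34 against 10.7 and 10.2 TPM (log2 1.44 ± 0.17), and CPE, a carboxypeptidase of secretory granules, at 12.5 and 14.1 against 21.5 and 34.2 TPM (log2 1.14 ± 0.20). CMKLR1, the receptor for chemerin, rose by 2.29-fold (log2 1.19 ± 0.24). CEMIP, CPE, NOG and CMKLR1 were named because they stayed called whichever library was left out, so this adds nothing for them. CSF1 and NTN4 also stayed called.

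Within the ER, folding enzymes had a common direction. All 40 members on the list of ER chaperones lay above 0 (median 0.47, range 0.18 to 1.07), and 6 of them rose. CALR, the calcium-binding lectin chaperone calreticulin, stood at 2484 and 2378 TPM in the controls and 3470.4 and 3724 TPM with ADAR1 siRNA (log2 0.66 ± 0.12, edgeR adjusted p = 0.0346). SERPINH1, the collagen-specific chaperone, stood at 297 and 312 against 437 and 459 TPM (log2 0.65 ± 0.13), and DNAJC3, an ER co-chaperone and inhibitor of PERK, at 20.4 and 21.1 against 29.96 and 36.1 TPM (log2 0.70 ± 0.15). ERO1A, the oxidase that drives disulfide formation, stood at 20.02 and 24.1 against 29.4 and 42.04 TPM (log2 0.78 ± 0.17). HSPA5, the Hsp70 of the ER, stood at 439 and 427 against 600.5 and 578 TPM but missed the threshold (log2 0.54 ± 0.14, adjusted p = 0.0574).

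Components that bring proteins into the ER and carry them onward had calls in both directions. On the list of ER translocation and glycan transfer (39 members, median 0.31), STT3B, a membrane subunit of the oligosaccharyltransferase, rose from 69.5 and 60.1 to 94.4 and 101 TPM (log2 0.67 ± 0.15). The 2 members that fell, SRP54 (29.3 and 38.1 against 13.6 and 21.6 TPM, log2 -0.89 ± 0.20) and SRP68 (35.4 and 40.2 against 15.8 and 25.5 TPM, log2 -0.80 ± 0.19), are cytosolic subunits of the signal recognition particle. On the COPI, COPII and Golgi list (48 members, median 0.08), the Golgi membrane protein gene GOLIM4 rose from 26.01 and 19.5 to 38.999 and 49.3 TPM (log2 1.02 ± 0.18). The 2 that fell, SEC23B (19.9 and 25.4 against 8.88 and 11.8 TPM, log2 -1.05 ± 0.18) and COPA (27.4 and 32.6 against 13.7 and 17.6 TPM, log2 -0.85 ± 0.16), encode coat subunits that assemble on vesicles from the cytosolic side. Some Golgi enzymes outside the lists that rose were chosen after their values were seen. They were GALNT1 (log2 1.09 ± 0.18) and GALNT2 (log2 0.85 ± 0.14), which start mucin-type glycans, and CHSY1 (log2 1.29 ± 0.24) and CHPF2 (log2 1.08 ± 0.19), which extend chondroitin chains. With libraries left out in the same order, 0, 0, 18 and 31 ER chaperones were called higher, 0, 0, 8 and 21 translocation members higher and 1, 0, 5 and 3 lower, and 1, 0, 4 and 12 coat and Golgi members higher and 3, 0, 7 and 12 lower.

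Lysosomal genes rose as well, 9 of 64 with 0 falling (median 0.42, 55 above 0). CTSD, the aspartic protease cathepsin D, stood at 885 and 1015 against 1474 and 1484 TPM (log2 0.74 ± 0.13). CTSZ, a cysteine cathepsin, stood at 167 and 177 against 240.2 and 288 TPM (log2 0.71 ± 0.14). GAA, the glycogen-degrading glucosidase, stood at 4.11 and 3.96 against 6.70 and 8.73 TPM (log2 1.02 ± 0.18). Their Input changes were 0.00, -0.04 and 0.01 in that order. Of 53 solute carriers and ion pumps only 1 rose, the choline transporter gene SLC44A1 (log2 0.75 ± 0.18), although 49 lay above 0 (median 0.28). Across the same left-out libraries in order, 1, 0, 26 and 35 lysosomal members and 1, 0, 13 and 18 carriers were called higher.

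Some factors of cytosolic translation fell. Of 50 initiation and elongation factors 4 fell and 0 rose (median -0.25). EIF2B4, a subunit of the exchange factor that recharges eIF2, stood at 21.03 and 27.4 TPM in the controls and 9.99 and 13.1 TPM with ADAR1 siRNA (log2 -0.98 ± 0.18, edgeR adjusted p = 0.0353). EIF3D, a subunit of the initiation factor eIF3, stood at 71.2 and 88.2 against 35.5 and 50.4 TPM (log2 -0.81 ± 0.17), and EIF3C of the same complex at 46.8 and 65.2 against 25.2 and 32.5 TPM (log2 -0.87 ± 0.18), with its near-identical copy EIF3CL at 0 counts in all 4. EEF1A1, which delivers aminoacyl-tRNA to the ribosome, was the most abundant of them at 4584 and 5207 against 2257 and 3472 TPM (log2 -0.69 ± 0.16). The controls lay above the siRNA libraries in each of these genes.

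Aminoacyl-tRNA synthetases, which charge tRNAs with amino acids, had a median of -0.43 over 23 members, of which 4 fell and 0 rose. NARS1 stood at 57.5 and 69.4 against 21.6 and 35.6 TPM (log2 -1.07 ± 0.19) and HARS1 at 58.5 and 66.6 against 28.997 and 40.9 TPM (log2 -0.78 ± 0.17). Both subunits of the phenylalanine enzyme fell, FARSA from 83.7 and 99.9 to 39.7 and 57.8 TPM (log2 -0.83 ± 0.17) and FARSB from 26.03 and 31.1 to 15.2 and 16.7 TPM (log2 -0.74 ± 0.16). The tRNA ligase complex, which joins tRNA exons and XBP1 messenger RNA, was looked at after the values of DDX1 were seen. Its subunit genes DDX1 (39.8 and 55.4 against 16.5 and 21.4 TPM, log2 -1.24 ± 0.18) and FAM98A (16.8 and 23.7 against 7.59 and 10.9 TPM, log2 -1.11 ± 0.20) fell. The catalytic subunit gene RTCB missed the threshold (log2 -0.72 ± 0.19, adjusted p = 0.063), and RTRAF (-0.13 ± 0.14) and FAM98B (0.02 ± 0.17) had values near 0. By left-out library in that order, 3, 0, 14 and 26 translation factors and 2, 0, 9 and 15 synthetases were called lower.

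Ribosome assembly in the nucleolus had the lowest list median, -0.47 over 55 members, of which 48 lay below 0, 9 fell and 0 rose. NOC2L, a nucleolar protein that also binds histones, stood at 29.5 and 39.3 against 10.1 and 16.7 TPM (log2 -1.28 ± 0.21, adjusted p = 0.0293). DDX52, a helicase of ribosomal RNA processing, stood at 12.3 and 16.03 against 4.34 and 7.58 TPM (log2 -1.17 ± 0.23). NOP58, a core protein of box C/D snoRNPs, stood at 26.5 and 33.4 against 14.5 and 17.9 TPM (log2 -0.79 ± 0.17), and MYBBP1A at 14.3 and 19.5 against 7.61 and 10.3 TPM (log2 -0.83 ± 0.18). The ribosomal proteins themselves had a median near 0: 0 rose and 0 fell among 79 by edgeR, with a median of 0.06 and a range of -0.60 to 0.51. An unadjusted p under 0.05 was found for 16 of them, DESeq2 called 4 and limma-voom 0. RPLP2, with the smallest p, stood at 2445 and 2612 against 3415 and 3303 TPM (log2 0.51 ± 0.14, adjusted p = 0.063). Leaving out libraries in the same order gave 7, 1, 21 and 42 assembly factors called lower, and 0, 0, 3 and 23 ribosomal proteins called higher and 0, 0, 2 and 15 lower.

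Splicing factors and other nuclear RNA-binding proteins had 10 of 64 members called lower and 0 higher (median -0.37). HNRNPK stood at 259 and 293 against 121 and 167 TPM (log2 -0.86 ± 0.15) and HNRNPL at 113 and 132 against 56.6 and 76.9 TPM (log2 -0.80 ± 0.15). SF3B4, a subunit of the U2 snRNP, stood at 66.5 and 79.3 against 32.03 and 43.01 TPM (log2 -0.87 ± 0.16) and the helicase gene DDX5 at 70.6 and 105 against 34.3 and 48.6 TPM (log2 -0.99 ± 0.20). Of 54 nucleoporins and transport receptors 3 fell and 0 rose (median -0.28): NUP188 (log2 -0.87 ± 0.16), NUP88 (log2 -0.73 ± 0.15) and the importin gene KPNA2 (log2 -0.89 ± 0.21). On the list of general transcription factors MED17, a Mediator subunit, was the 1 call among 66 (log2 -0.86 ± 0.18; list median -0.06). Among 26 SWI/SNF subunits the 1 call was SMARCD3, at 2.95 and 3.56 against 0.659 and 1.49 TPM (log2 -1.62 ± 0.35). SMARCD3 met the count limit only through the controls, with 77 and 79 counts against 22 and 44. The SWI/SNF list's median of -0.11 became 0.01 without ADAR1 siRNA replicate 1. In the same order of left-out libraries, 9, 0, 21 and 46 splicing members, 3, 0, 15 and 32 pore and transport members, 2, 0, 4 and 16 transcription members and 1, 0, 1 and 8 SWI/SNF members were called lower.

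Genes of DNA replication were lower too, 8 of 53 called lower and 0 higher (median -0.36). CDC6, which loads the replicative helicase, stood at 23.4 and 32.1 against 10.5 and 14.8 TPM (log2 -1.05 ± 0.19). Helicase subunits MCM2 (16.9 and 26.7 against 6.42 and 12.4 TPM, log2 -1.14 ± 0.27), MCM4 (log2 -1.01 ± 0.20) and MCM5 (log2 -1.05 ± 0.24) fell, as did both ribonucleotide reductase subunits, RRM1 (log2 -0.95 ± 0.21) and RRM2 (log2 -0.68 ± 0.14). Of 51 genes of G2 and mitosis 5 fell (median -0.30), among them NUSAP1 (67.8 and 71.3 against 30.2 and 42.1 TPM, log2 -0.87 ± 0.16), the spindle kinesin gene KIF11 (log2 -0.85 ± 0.17), the condensin gene NCAPG (log2 -0.73 ± 0.14) and ECT2 (log2 -0.71 ± 0.15). MKI67, the large nuclear protein used as a marker of cycling cells, was the 1 member that rose, at 7.70 and 9.05 against 11.2 and 19.2 TPM (log2 0.91 ± 0.20). Histones of replication, 42 members, had a median of 0.01 with 0 rises and 0 falls by edgeR, and H4C1 had the smallest p (log2 0.34 ± 0.13; 1 at an unadjusted p under 0.05, 0 by DESeq2 and limma-voom). Across the same left-out libraries in order, 11, 0, 16 and 33 replication genes and 3, 0, 11 and 31 mitosis genes were called lower, and 0, 0, 1 and 0 histones higher and 0, 0, 1 and 0 lower.

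Genes of DNA end joining, outside the lists and examined after their values were seen, were also looked at. The Ku heterodimer, which binds broken DNA ends, fell in both subunits, XRCC5 from 51.99 and 65.6 to 19.6 and 33.1 TPM (log2 -1.08 ± 0.20) and XRCC6 from 181 and 221 to 82.3 and 129 TPM (log2 -0.85 ± 0.18). PRKDC, the kinase that Ku recruits, stood at 14.5 and 16.03 against 13.1 and 13.9 TPM (log2 -0.08 ± 0.14, adjusted p = 0.755).

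Cytosolic chaperones had 8 of 39 members called lower and 0 higher (median -0.23), whereas all measured ER chaperones lay above 0. CCT3, CCT4 and CCT7 are subunits of the ring that folds actin and tubulin. CCT3 stood at 257 and 307 against 122 and 178 TPM (log2 -0.83 ± 0.16), CCT4 at 149 and 165 against 76.98 and 104 TPM (log2 -0.71 ± 0.15) and CCT7 at 268 and 297 against 150.3 and 189.7 TPM (log2 -0.66 ± 0.14). The Hsp90 genes HSP90AA1 (624 and 749 against 258 and 455 TPM, log2 -0.87 ± 0.20) and HSP90AB1 (521 and 700.2 against 244 and 389 TPM, log2 -0.88 ± 0.19) fell, as did HSPA4L, an Hsp110 (log2 -1.09 ± 0.21). HSPA1B was called as well, but its counts summed with those of its near-identical copy HSPA1A fell by 0.74 on the log2 scale against -0.96 for HSPA1B alone. Proteasome subunits had 0 rises and 0 falls among 39 by edgeR, although 31 lay below 0 (median -0.20), and PSMD2 had the smallest p (log2 -0.54 ± 0.14, adjusted p = 0.0603). An unadjusted p under 0.05 was found for 13 proteasome subunits, and DESeq2 called 3 and limma-voom 0. By left-out library in that order, 8, 0, 18 and 21 cytosolic chaperones and 0, 0, 6 and 18 proteasome subunits were called lower.

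Enzymes of cytosolic metabolism were lower in part. Of 30 nucleotide synthesis enzymes 5 fell and 0 rose (median -0.28), RRM1 and RRM2 among them with the purine and folate enzyme genes MTHFD1 (log2 -0.94 ± 0.20), GART (log2 -0.74 ± 0.16) and ATIC (log2 -0.75 ± 0.16). Of 33 genes of glycolysis and hypoxia 5 fell and 1 rose (median -0.18). PKM, pyruvate kinase, stood at 997 and 1393 against 472 and 734 TPM (log2 -0.90 ± 0.19) and HK2, the hexokinase that starts glycolysis, at 16.6 and 23.2 against 7.60 and 10.8 TPM (log2 -1.03 ± 0.19). PFKM (log2 -0.87 ± 0.18) and PGK1 (log2 -1.001 ± 0.22) fell too, and the 1 rise was the ER enzyme gene P4HA1. On the list of sterol synthesis and SREBP targets (35 members, median 0.16), ACLY, the cytosolic source of acetyl-CoA, fell (log2 -0.90 ± 0.17), and SCD, a desaturase of the ER membrane, rose (log2 0.65 ± 0.15). Cytosolic enzymes outside the lists that fell, chosen after their values were seen, were PNP of purine salvage (267 and 273 against 112 and 133 TPM, log2 -1.05 ± 0.14), LTA4H (log2 -1.24 ± 0.22), AHCY (log2 -0.85 ± 0.14) and PGD (log2 -1.01 ± 0.19). In the same order of left-out libraries, 2, 0, 11 and 15 nucleotide enzymes, 6, 0, 11 and 16 glycolysis members and 1, 0, 2 and 8 sterol members were called lower, and 0, 0, 3 and 3 glycolysis and 0, 0, 11 and 7 sterol members higher.

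Mitochondrial genes showed no common direction. The nuclear-encoded respiratory chain had 3 falls and 0 rises among 75 members with a median of 0.05. NDUFS1, the iron-sulfur subunit of complex I, stood at 25.6 and 36.5 against 10.97 and 13.7 TPM (log2 -1.24 ± 0.18, edgeR adjusted p = 0.0239). ATP5F1A, the alpha subunit of ATP synthase, stood at 157 and 201 against 68.7 and 107 TPM (log2 -0.98 ± 0.18) and UQCRC2 of complex III at 35.9 and 45.3 against 17.3 and 26.5 TPM (log2 -0.81 ± 0.19). The matrix chaperone genes HSPD1 (116 and 159 against 55.2 and 77.1 TPM, log2 -0.97 ± 0.18), HSPA9 (log2 -0.96 ± 0.22) and TRAP1 (log2 -0.67 ± 0.16) fell on a list of 32 with a median of -0.03. Among 76 mitochondrial ribosomal proteins MRPS18B fell (log2 -0.72 ± 0.15; median -0.01), and the 12 genes of the mitochondrial genome had 0 rises and 0 falls by edgeR (median 0.09; COX2 at 0.56 ± 0.18, adjusted p = 0.0963; 3 at an unadjusted p under 0.05, 0 by DESeq2 and limma-voom). The signs of these 4 medians changed under at least 1 alternative each. Across the same left-out libraries in order, 4, 0, 7 and 11 respiratory chain members, 2, 0, 6 and 10 chaperone and import members, 2, 0, 7 and 12 ribosomal proteins and 0, 0, 1 and 2 mitochondrially encoded genes were called lower. Called higher in the same order were 0, 0, 2 and 20 respiratory chain members, 0, 0, 0 and 7 chaperone and import members, 0, 0, 1 and 8 ribosomal proteins and 0, 0, 1 and 2 mitochondrially encoded genes, so that without ADAR1 siRNA replicate 2 more respiratory chain members were called higher than lower.

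The remaining lists had few calls. Of 32 genes of the integrated stress response 2 rose and 0 fell (median 0.24), DDIT3 and the phosphatase subunit gene PPP1R15A, at 28.9 and 28.01 against 52.6 and 47.5 TPM (log2 0.92 ± 0.16). Plakins, keratins and other intermediate filaments had 3 falls in 18 (median -0.23), all of filament proteins of the cytosol and nucleus: LMNA (198 and 281 against 73.6 and 138 TPM, log2 -1.09 ± 0.23), KRT8 (log2 -0.96 ± 0.21) and KRT19 (log2 -0.99 ± 0.15). Of 55 cytoskeletal genes TUBA1A rose (log2 0.75 ± 0.16, list median -0.14). Outside the list FSCN1, an actin-bundling protein chosen after its values were seen, fell in footprints (log2 -1.15 ± 0.16) and by a like amount in Input (log2 -1.01 ± 0.14, not called). Among 21 YAP and TEAD targets IGFBP3, a secreted binding protein of growth factors (log2 0.90 ± 0.20), and FJX1 (log2 0.99 ± 0.23) rose and ANKRD1 fell (log2 -0.68 ± 0.15). Among 26 immediate early and AP-1 genes SRF rose (log2 0.86 ± 0.20) and the phosphatase gene DUSP6 fell (log2 -0.82 ± 0.17). By edgeR 0 of 20 p53 targets were called (FDXR lowest in p, log2 -0.92 ± 0.23, adjusted p = 0.0571), and 0 of 28 ubiquitin ligase scaffolds (NEDD4L, -0.61 ± 0.19, adjusted p = 0.0865). In these 2 lists 6 and 5 had an unadjusted p under 0.05, DESeq2 called 2 and 1, and limma-voom called 0. By left-out library in that order, 2, 1, 5 and 13 stress response members and 1, 0, 12 and 7 YAP targets were called higher, and 4, 0, 5 and 8 filament and 0, 0, 4 and 6 p53 list members lower. Of the cytoskeletal genes 0, 0, 13 and 8 were called higher and 2, 0, 8 and 21 lower. Immediate early genes had 1, 0, 2 and 6 called higher and 1, 0, 3 and 7 lower, and 1, 0, 4 and 3 stress response members, 0, 0, 1 and 5 YAP targets and 1, 0, 0 and 10 ubiquitin ligases were called lower.

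Among the 10 members with the highest control level per length, edgeR called 0, with 4 at an unadjusted p under 0.05, DESeq2 called 1 and limma-voom 0. Among them were S100A6, TMSB4X, TMSB10, RPL41, PTMA, ACTB, RPL37, RPS24 and RPL37A. The calcium-binding protein gene S100A6 led at 19352 and 20465 TPM in the controls and 25129 and 17447 TPM with ADAR1 siRNA, where the groups overlapped (log2 0.21 ± 0.19). TMSB4X, the actin-sequestering thymosin beta 4, stood at 19894 and 18341 against 31338 and 22895 TPM (log2 0.61 ± 0.19, edgeR adjusted p = 0.0861), and ACTB at 7355 and 7707 against 5780.4 and 5796 TPM (log2 -0.28 ± 0.12).

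Footprint changes were set beside those of Input RNA, in which 0.303% of members were called. Among members called higher in footprints the median Input log2 fold change was 0.19, with 159 of 210 above 0, and among those called lower it was -0.04, with 121 of 194 below 0. The secretory lists had a median of -0.0043 in Input and the cytosol and nucleus lists 0.03, against 0.39 and -0.28 in footprints. NF-kB targets (0.60 in Input, 0.77 in footprints) and stress response genes (0.23 and 0.24) had like medians in both. The NF-kB value in Input rested mostly on ADAR1 siRNA replicate 1, at 0.75 relative to the mean against -0.12 in replicate 2. Over the 15 histones measured in both, the median was 1.00 in Input and -0.02 in footprints, with 1 of them called in Input. Counts of histones were few in Input, at 0.0138% to 0.0226% of each library against 4.13% to 4.33% in Ribo-seq.

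The difference between the footprint and the Input change of each gene was tested as the interaction of assay and siRNA over all 8 libraries. It passed for 5 members (0.0501%), H1-2, TMEM132A, TRAF6 and GTF2H2C_2 among them, of which none was on the secretory or the cytosol and nucleus lists (218 and 226 members of those had an unadjusted p under 0.05 in edgeR, as did 26.6% of all members). At an adjusted p under 0.1 there were 1123 members, including 119 of those called higher and 144 of those called lower in footprints. Of the genes called in footprints 3 passed, TRAF6 and GTF2H2C_2 among them. The others did not pass this test, which on simulated data called only 4.5% of 1.5-fold and 50.7% of 2-fold changes. The simulation changed 67 genes by 1.5-fold, 67 by 2-fold and 66 by 4-fold among 12838. The share of changed genes in the data may differ, so these rates need not hold for it. The number that passed was 1 without either control Ribo-seq library and 486 or 2178 without ADAR1 siRNA replicate 1 or 2.

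**Figure D4:**
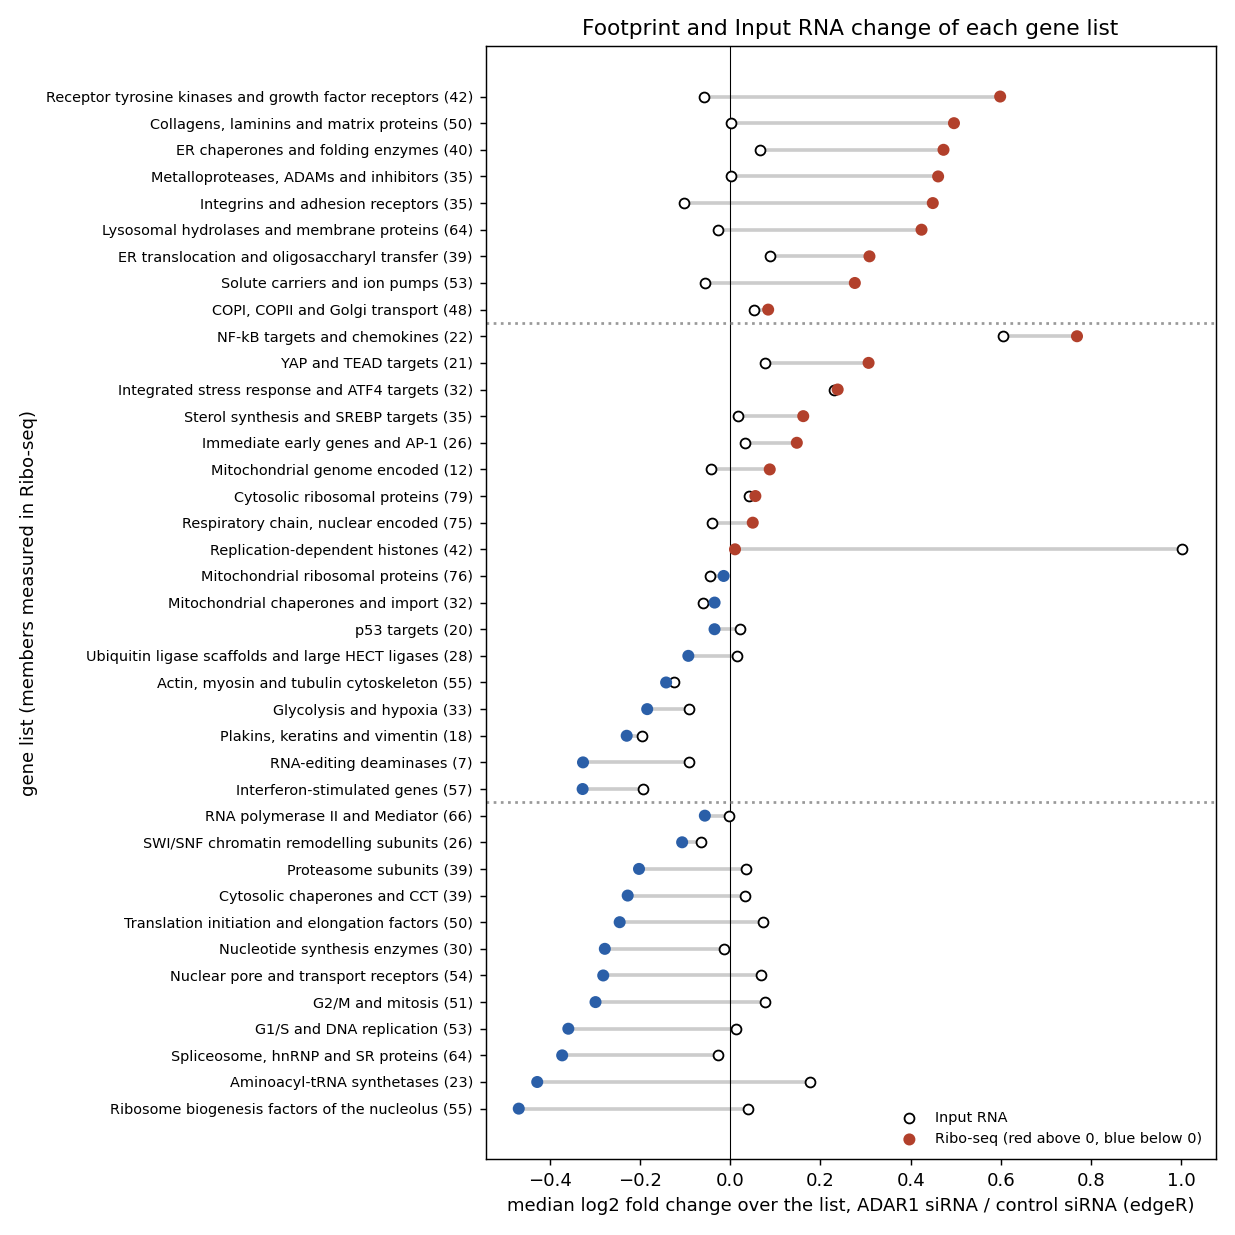
Median log2 fold change of each gene list after ADAR1 siRNA in Ribo-seq (filled points, red above 0 and blue below) and in Input RNA (open points), with the number of members measured in Ribo-seq in brackets. In the upper block of 9 secretory lists and the lower block of 12 cytosol and nucleus lists the open points stay between -0.10 and 0.18 while the filled points spread from -0.47 to 0.60.

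Some of the largest falls are uncertain because reads may be shared with another gene. GTF2H2C_2 had 461 counts over the controls and, after rounding, 0 over the siRNA libraries, which with a limit of 3 counts over that group is at least 202-fold lower. For its near-identical copy GTF2H2C the value was 1.11, and the counts of the family summed changed by -0.03 on the log2 scale. URGCP-MRPS24 is a readthrough gene (log2 -1.45 ± 0.32), and summed with URGCP and MRPS24 the change was 0.17. Gene number 112267947, which matched no symbol, fell by 2.93 on the log2 scale. The other large falls were those of MAP3K6, a stress-activated kinase (log2 -1.34 ± 0.28), TNS2, a tensin of focal adhesions (log2 -1.28 ± 0.27), and NFXL1 (2.01 and 2.92 against 0.915 and 0.881 TPM, log2 -1.35 ± 0.28). At the edge of the count limit CCL2, SNPH and ODAD2 lay just inside with means of 50, 50 and 50.04, and ANKRD36C and LRRC28 just outside with 49.9 and 49.8 (log2 0.25 and -0.24).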

How the data were processed

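The members and the gene lists were chosen with earlier results of these data known, and the genes said to be chosen after their values were seen lie outside the rule. Per the submitters' processing notes, cutadapt, Bowtie2, STAR and featureCounts were used with GRCh38/hg38 (not given in the sources used here: versions). The authors deposited 1 table with an estimated count per gene and library, not always whole, and a TPM value. Counts were rounded to whole numbers, and 19669 of 19892 gene numbers were matched to a symbol. The main test was edgeR 4.0.16's quasi-likelihood test (R 4.3.3) with TMM scaling, filterByExpr (minimum count 10) and Benjamini-Hochberg adjustment over all genes tested, called at 0.05, with 4 Ribo-seq libraries in the footprint fit and 8 in the fit of the difference between assays. Log2 CPM used a prior count of 2, and TPM, per length, was used for levels. DESeq2 1.42.0, limma 3.58.1, other scalings and filters, a replicate block and each library left out were the alternatives. On simulated data for the footprint comparison (11867 genes) 34.3%, 77.6% and 98.5% of 1.5-, 2- and 4-fold changes were called, and 6.04% of calls were false. For the difference between assays (12838 genes) the shares were 4.5%, 50.7% and 95.5%, and 9.91% of calls were false. Each simulation changed 67, 67 and 66 genes by 1.5-, 2- and 4-fold, a share that may differ from that in the data. No molecular identifiers are named in the labels, so reads may be copies of 1 molecule. Strand is not stated. 4 columns of the table, the authors' translational efficiency ratios, were not used, and protein features were not computed. A few genes are not reported here. Named genes were otherwise the target, the 12 largest called rises and falls whose groups do not overlap, the 10 highest control levels, and up to 4 called members of each list by p, or the 1 with the smallest p where none was called. With 2 libraries against 2, an exact permutation test of a single gene cannot go below p = 0.333.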

Additional observations from a re-analysis of the deposited data

Results flagged for a closer look

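The change in footprints differed from the change in Input RNA by the interaction test over 8 libraries (edgeR's quasi-likelihood test, Benjamini-Hochberg adjusted over all genes tested) in 5 members, and those given here are listed for that reason. H1-2, a linker histone, had footprints of 1867 and 1857 TPM in the controls and 1517 and 1697 TPM with ADAR1 siRNA, and Input levels of 90.7 and 94.6 against 231.5 and 197 TPM. Both Input siRNA libraries lay well above their controls while the footprint groups differed by less, and the difference in log2 fold change was -1.29 (adjusted p = 0.0447).

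TRAF6 footprints stood at 28.4 and 26.8 against 8.51 and 12.6 TPM with Input at 8.14 and 8.002 against 10.96 and 10.2 TPM, a difference of -1.45 (edgeR adjusted p = 0.0456). TMEM132A, a membrane protein, had footprints of 6.47 and 6.92 against 9.15 and 10.4 TPM, higher in both siRNA libraries but not called (log2 0.64 ± 0.16, adjusted p = 0.0565). Its Input level was 25.5 and 25.9 against 17.2 and 17.7 TPM, and the difference was 1.22.

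GTF2H2C_2 had a fitted difference of -11.87, whose size depends on the prior count because its siRNA footprints rounded to 0. Its Input level was 52.7 and 45.6 against 63.9 and 49.2 TPM, and GTF2H2C is a near-identical copy. The summed counts of the family changed by -0.03 on the log2 scale in footprints.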

How the results depend on the processing

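Over the members, 408 were called in footprints by the main test. The count was 978 with DESeq2, 244 with limma-voom, 1584 with no filter on low counts and 9 with limma on log2(TPM + 1), a setting chosen after seeing the data, and 50 to 3291 with 1 library left out. It was 452 with DESeq2 size factors in edgeR, 468 with upper-quartile scaling and 525 with a mean count of 50 or more before testing. In each of these settings all 408 kept their direction. For the left-out libraries this was nearly fixed in advance, because the groups of all 408 do not overlap. The difference between assays was called for 5 members, for 2 with the mean count of 50 before testing, for 5 with upper-quartile scaling and for 1 to 2178 with 1 library left out.

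With the replicate number as a block, 2020 members were called in footprints and 699 in the difference between assays. The labels do not say that a number marks a shared batch. The replicate deviations of the 2 groups had a correlation of 0.083 across genes in Ribo-seq and 0.034 in Input. These values cannot show whether equal numbers shared a culture or a batch. Ribo-seq and Input deviations of the same number correlated at 0.0023 in the control pair and 0.443 in the siRNA pair, a relation that the block, nested in assay, does not use.

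Of 150 named genes that were called, 0 reversed in any setting. With 1 library left out this was nearly fixed in advance, since the groups of each called gene do not overlap. The call was lost for 11 with DESeq2, 2 with its size factors, 31 with limma-voom, 6 with upper-quartile scaling, 142 with limma on TPM, 45 without control replicate 1 and 117 without control replicate 2, and for 0 with the other settings. FAM98B, which was not called, had the opposite sign with DESeq2 (-0.014), with its size factors in edgeR (-0.014) and with limma on TPM (-0.081), and ranged from -0.19 to 0.16 with 1 library left out. Where a library was left out, the lone library of its group was assumed to vary like the other group. The cause of these moves was not tested. Low counts limit what can be called: of the 1995 members with the lowest counts 0.752% were called higher and 0.351% lower. Protein features of the members were not run.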

Other observations

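Of 8376 members on none of the 39 gene lists, 142 were called higher and 106 lower. PDGFRB, a receptor known from fibroblasts and pericytes, was among the rises at a low level, 0.833 and 0.579 TPM in the controls and 1.39 and 1.70 TPM with ADAR1 siRNA, and it was named after its value was seen. VIM, the gene of vimentin, had footprints of 1882 and 2275 TPM in the controls and 831 and 1473 TPM with ADAR1 siRNA and was not called, whereas CAV1, of caveolae, rose from 788 and 738 TPM to 1126 and 1153 TPM. Both are markers of MDA-MB-231 cells.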
